A study of Mus musculus with 8 samples.

Results

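The transcripts of the mitochondrial genome were examined in the liver of wildtype mice and of knockout mice that lack Foxo1 in this organ. Foxo1 encodes a transcription factor that is active when insulin is low. Genes were taken by position and name, as those whose symbol in the GENCODE M21 annotation (mouse build mm10) begins with mt-. The annotation holds 37 such genes, and the 13 that encode proteins were found among the 25690 genes of the deposited table. Values for the 2 ribosomal RNA genes and the 22 transfer RNA genes were not analysed here. There were 4 wildtype libraries, numbered 1, 3, 10 and 12 in their titles, and 4 knockout libraries, numbered 3, 9, 10 and 11. The tissue of both groups is labelled as liver, and the labels name no strain, age, sex, diet or other treatment, nor the driver of the deletion. Whether each library is a mouse of its own is not stated, so the error of every test is the spread between libraries, part of which may be technical. The RNA was total RNA, and whether libraries were made from polyadenylated RNA or after removal of ribosomal RNA is not known here. Foxo1 was between 3.01 and 3.81 FPKM in wildtype and between 0.212 and 0.375 FPKM in knockout libraries (limma, adjusted p = 3.62e-05). Levels are in FPKM, fragments per kilobase of transcript in a library of fixed size. Those of different genes can be set side by side only as far as 2 steps hold, which could not be examined. These are the correction for length and the assignment of fragments that match several places.

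The mitochondrial genome is a small circle kept in many copies per cell, and its protein genes all encode core subunits of the oxidative phosphorylation machinery, which liver uses to make ATP. The mitochondrial RNA polymerase copies each strand as a long precursor, and the RNA is then cut, mostly at the transfer RNAs that lie between the other genes, and the messages are polyadenylated. All remaining subunits of these complexes, and all factors that copy, cut and stabilise mitochondrial RNA, come from nuclear genes. Of the 13 protein genes 7 encode complex I subunits, 3 complex IV subunits and 2 complex V subunits, and mt-Cytb encodes the mitochondrial subunit of complex III. Reading frames of 12 genes run along the plus strand of the reference and that of mt-Nd6 along the minus strand. The transcripts are short, from 204 bases (mt-Atp8) to 1824 bases (mt-Nd5). Their sequences show the compact layout: mt-Nd1 begins with GTG, mt-Nd2 with ATA, mt-Nd3 with ATT and mt-Nd5 with ATC in place of ATG. In mt-Co3, mt-Nd4 and mt-Cytb a single T follows the last full codon, and polyadenylation is known to complete the stop codon of such messages.

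At 3 places on the plus strand no transfer RNA separates neighbouring genes, and the genes overlap. These junctions are shown because ratios of the genes on either side are compared below. Capitals mark the bases that belong to both genes, from GENCODE M21 transcripts.
mt-Atp8 and mt-Atp6, chrM:7897-7999, plus strand: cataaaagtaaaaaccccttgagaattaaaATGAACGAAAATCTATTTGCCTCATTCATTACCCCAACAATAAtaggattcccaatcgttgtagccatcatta
mt-Atp6 and mt-Co3, chrM:8577-8637, plus strand: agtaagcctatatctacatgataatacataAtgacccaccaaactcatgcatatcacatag
mt-Nd4l and mt-Nd4, chrM:10137-10203, plus strand: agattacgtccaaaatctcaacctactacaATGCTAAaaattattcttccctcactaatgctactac
The overlap is 43 bases long between mt-Atp8 and mt-Atp6, 7 bases between mt-Nd4l and mt-Nd4, and 1 base between mt-Atp6 and mt-Co3. The first pair is known to be translated from 1 shared message, and so is the mt-Nd4l and mt-Nd4 pair. On opposite strands mt-Nd5 and mt-Nd6 share 14 bases. Whether counting used strand is not stated, so fragments of mt-Nd6 and of RNA antisense to it cannot be told apart.

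Several of the genes also have a copy in the nuclear genome, and fragments from identical stretches cannot be assigned by sequence. Alignment of the 13 transcripts to all other GENCODE M21 transcripts found 15 copies that covered at least 30% of a mitochondrial transcript at 90% identity or more, 7 of them on chromosome 1 between 24611535 and 24616197 (mm10). The chromosome 1 copies matched 681 of the 684 bases of mt-Co2, 678 of the 681 bases of mt-Atp6 and 783 of the 784 bases of mt-Co3 with 0 mismatches. They also matched 876 of the 1378 bases of mt-Nd4 with 0 mismatches and 483 of the 1545 bases of mt-Co1 with 1. On chromosome 2 Gm13340 matched all 1545 bases of mt-Co1 at 97.6% identity. The copy of mt-Nd4l is Gm10222 (chromosome 1, 24612407 to 24612700, minus strand, unprocessed pseudogene). It is shown with mt-Nd4l because it is listed in the deposited table at nearly the same value. Lower case marks the 294 bases that the gene and its copy share, and capitals the 3 bases of the stop codon, which lie beyond the annotated copy.
mt-Nd4l: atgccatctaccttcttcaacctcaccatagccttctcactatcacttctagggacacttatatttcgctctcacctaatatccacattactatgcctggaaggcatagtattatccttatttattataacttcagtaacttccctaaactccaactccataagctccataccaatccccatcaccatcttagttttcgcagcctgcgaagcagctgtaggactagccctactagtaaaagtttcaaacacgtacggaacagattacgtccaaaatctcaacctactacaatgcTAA
The copy of mt-Nd3 is Gm28438, which differs by a single base, T3C, counted from 1 at the first base of mt-Nd3 with the base of mt-Nd3 first. The first 23 bases of each are given with that position in capitals.
mt-Nd3: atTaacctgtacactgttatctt
Gm28438: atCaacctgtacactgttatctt
Gm10222 differed from mt-Nd4l by at most 0.0477% in any library, at 2706 FPKM against 2706 FPKM in knockout 11 and 5815 FPKM against 5814 FPKM in knockout 9. How the authors treated fragments with several alignments is not stated in the labels. For mt-Nd1, mt-Nd2, mt-Nd5, mt-Nd6 and mt-Cytb no chromosome 1 copy was found. Copies of 4 of these, on chromosomes 2, 4 and 13, were between 92.3% and 96.7% identical. For mt-Nd1 and mt-Atp8 no annotated transcript met the criteria. Unannotated sequence was not searched. That includes the stretch between the chromosome 1 copies of mt-Co2 and mt-Atp6, the genes on either side of mt-Atp8, so a copy of mt-Atp8 there is not excluded. The pseudogene Gm4076 (chromosome 13, 85126550 to 85127514), a partial copy of mt-Nd5, is listed in the table too, at 4.2 ± 0.79 FPKM in wildtype and 6.21 ± 1.49 FPKM in knockout liver (SD, n = 4), against 1497 and 2168 FPKM for mt-Nd5.

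Mitochondrial messages were among the most abundant RNAs of these livers. Of the 20 genes with the highest mean FPKM 8 were mitochondrial. The highest was mt-Atp8, a small membrane subunit of ATP synthase, with a mean of 73028 FPKM over the 8 libraries. Next came mt-Atp6, its proton channel subunit, at 22466 FPKM, then the complex IV subunit genes mt-Co2, mt-Co3 and mt-Co1 at 21883, 21338 and 20170 FPKM. The lowest mt-Atp8 value, 59995 FPKM, was above every value of the other genes, while the ranges of these 4 overlapped and set no order among them. Of the complex I genes mt-Nd3 was highest at 13642 FPKM, followed by mt-Nd1 at 8241 and mt-Nd2 at 6028. The complex III gene mt-Cytb lay between these at 7822 FPKM. The lowest levels were those of mt-Nd4, mt-Nd4l, mt-Nd6 and mt-Nd5, at 4952, 3522, 2928 and 1833 FPKM. Among these genes too the range over libraries of each overlapped with that of the next in the order. Within every library, though, mt-Nd1 was above mt-Nd2, mt-Nd4 above mt-Nd4l and mt-Nd6 above mt-Nd5. mt-Atp8 exceeded mt-Atp6 3.03-fold in wildtype liver although both lie on 1 message, and its transcript is the shortest of the 13. Judged by the FPKM that a single fragment gives, the message with the fewest fragments still had 24739 of them in wildtype 3 and 52132 in knockout 9. Counting error is therefore far below the spread between libraries.

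**Figure D1:**
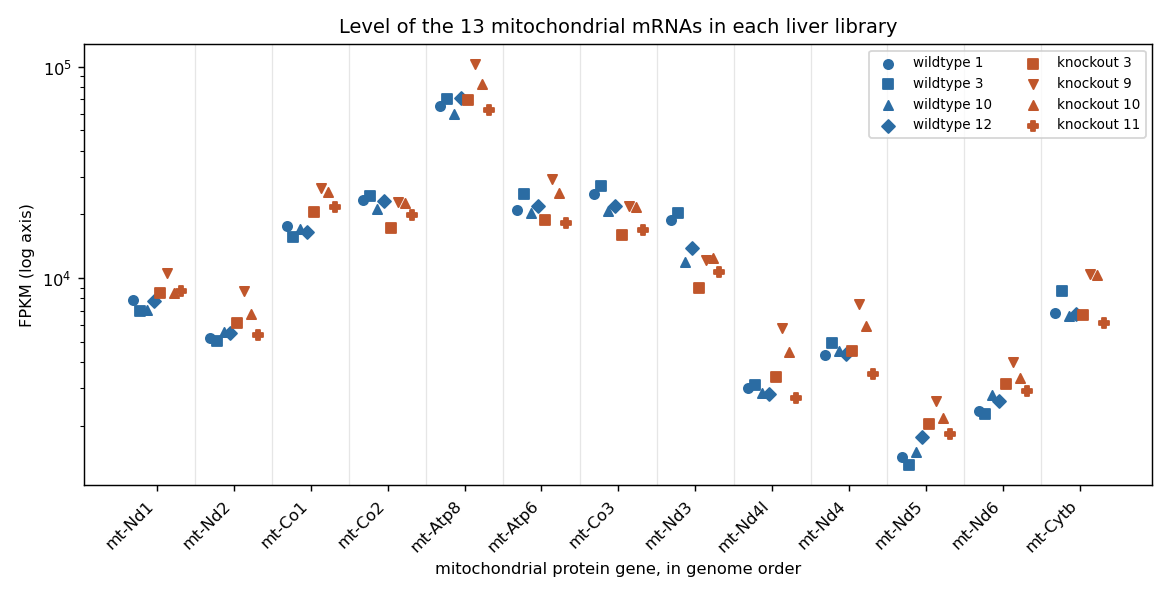
FPKM of each mitochondrial protein gene (log axis) in the 4 wildtype (blue) and 4 knockout (orange) libraries, genes in genome order; each point is 1 library. Levels run from 1297 FPKM for mt-Nd5 in wildtype 3 to 102904 FPKM for mt-Atp8 in knockout 9.

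In the knockout liver 2 of the 13 messages were higher and 0 were lower by limma at an adjusted p under 0.05, where 2.7% of all 10250 tested genes were higher and 11.7% lower. All 13 passed the filter on low values. At an unadjusted p under 0.05 there were 3 higher and 1 lower. For this and later counts at an unadjusted p, the share of all tested genes was not computed. It is at least the 14.4% that passed in limma after adjustment. The messages called were mt-Co1, the catalytic core of cytochrome c oxidase, and mt-Nd5, a proton-pumping subunit of complex I. Log2 changes were positive for 10 genes and negative for 3, but for 5 and 8 with quantile normalization and for 12 and 1 with the trend along transcript length removed. Their median was 0.23, against -0.08 over all tested genes. Of all tested genes 277 were higher and 1195 lower, and with median-ratio scaling 485 and 720. In 4 genes every knockout library lay above every wildtype library, as it did for 4.83% of tested genes, and in 0 genes below (16.5%). Amounts of mitochondrial DNA were not measured here, and in a tissue fewer cells of a type and less RNA per cell cannot be told apart.

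**Figure D2:**
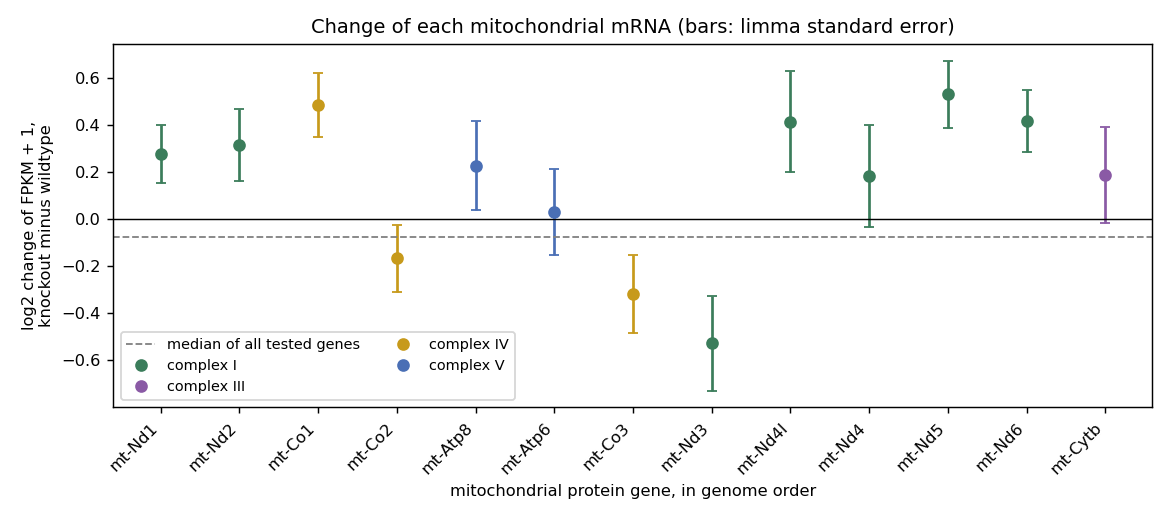
Log2 change of FPKM + 1 (knockout minus wildtype) of each mitochondrial protein gene in genome order, coloured by complex, with bars for the limma standard error and a dashed line for the median of all tested genes. mt-Co1 (0.49) and mt-Nd5 (0.53) passed the threshold; mt-Co2, mt-Co3 and mt-Nd3 lie below 0, and mt-Nd3 alone does with the length trend removed.

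The 3 complex IV genes differed in the sign of their change. mt-Co1 (ENSMUSG00000064351, chrM:5328-6872) was at 17696, 15697, 17063 and 16591 FPKM in wildtypes 1, 3, 10 and 12, and at 20546, 26573, 25459 and 21734 FPKM in knockouts 3, 9, 10 and 11. Every knockout library was above every wildtype library. The means were 16762 ± 842 and 23578 ± 2893 FPKM (SD, n = 4), a 1.41-fold higher level (limma log2 change 0.49 ± 0.14 SE, adjusted p = 0.0446). mt-Co2, which carries the site where cytochrome c delivers electrons, was at 23088 ± 1390 and 20677 ± 2649 FPKM (limma log2 change -0.17 ± 0.14 SE, adjusted p = 0.478). mt-Co3, a structural core subunit, was at 23638 ± 2930 and 19037 ± 3114 FPKM (limma log2 change -0.32 ± 0.16 SE, adjusted p = 0.228). Neither passed, and the groups overlapped in both.

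Of the 7 complex I genes mt-Nd5 rose, and in mt-Nd1 and mt-Nd6 the groups did not overlap. mt-Nd5 (ENSMUSG00000064367, chrM:11742-13565) was at 1428, 1297, 1493 and 1771 FPKM in wildtypes 1, 3, 10 and 12, and at 2044, 2627, 2175 and 1826 FPKM in knockouts 3, 9, 10 and 11. The groups did not overlap, but knockout 11 lay close to wildtype 12. The mean was 1.45-fold higher (limma log2 change 0.53 ± 0.14 SE, adjusted p = 0.0385). mt-Nd6 (ENSMUSG00000064368, chrM:13552-14070), the one message read from the other strand, was at 2345, 2263, 2785 and 2621 FPKM in the wildtype and at 3139, 4002, 3358 and 2910 FPKM in the knockout libraries. Its groups did not overlap either, but it missed the threshold (limma log2 change 0.42 ± 0.13 SE, adjusted p = 0.0652). mt-Nd1, the first protein gene after the ribosomal RNAs, was at 7443 ± 471 and 9040 ± 996 FPKM (SD, n = 4), also with no overlap (limma log2 change 0.28 ± 0.12 SE, adjusted p = 0.167). mt-Nd2 was at 5327 ± 243 and 6729 ± 1408 FPKM (limma log2 change 0.32, adjusted p = 0.204), and knockout 11 was within the wildtype range. mt-Nd1 and mt-Nd2 encode membrane subunits, mt-Nd1 beside the ubiquinone site.

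mt-Nd3, mt-Nd4l and mt-Nd4, further membrane subunit genes of complex I, varied more within at least 1 group than the other complex I genes. mt-Nd3 was at 18845, 20391, 11837 and 13795 FPKM in wildtypes 1, 3, 10 and 12 and at 8981, 12105, 12471 and 10716 FPKM in knockouts 3, 9, 10 and 11. Wildtypes 1 and 3 were high, and wildtype 10 was within the knockout range. It had the most negative difference of the 13 genes and did not pass (limma log2 change -0.53 ± 0.20 SE, adjusted p = 0.114). mt-Nd4l was at 3001, 3104, 2857 and 2836 FPKM in the wildtype and at 3390, 5814, 4466 and 2706 FPKM in the knockout libraries. Knockout 11 was below every wildtype library and knockout 9 highest. mt-Nd4 was at 4538 ± 284 and 5367 ± 1757 FPKM, with the same order of knockout libraries, highest in knockout 9 and lowest in knockout 11. In limma the log2 change was 0.41 ± 0.21 SE for mt-Nd4l (adjusted p = 0.227) and 0.19 ± 0.22 SE for mt-Nd4 (adjusted p = 0.618).

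The complex V and complex III messages did not pass. mt-Atp8 was at 66725 ± 5328 and 79331 ± 17733 FPKM (SD, n = 4; limma log2 change 0.23, adjusted p = 0.465) and mt-Atp6 at 22034 ± 2038 and 22897 ± 5386 FPKM (limma log2 change 0.03, adjusted p = 0.933). mt-Cytb was at 7222 ± 974 and 8421 ± 2337 FPKM (limma log2 change 0.19, adjusted p = 0.591). In all 3 the knockout SD was larger than the wildtype SD, with knockouts 9 and 10 above the wildtype range and knockouts 3 and 11 not.

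The calls of mt-Co1 and mt-Nd5 each held in 11 of 21 alternative analyses. When single libraries were left out in turn, mt-Co1 passed in limma only with knockout 3 left out, and its adjusted p otherwise lay between 0.0561 and 0.127. mt-Nd5 passed only with wildtype 12 or knockout 11 left out, and its adjusted p otherwise lay between 0.0588 and 0.106. With no filter on low values or with libraries scaled to the total outside the mitochondrial genome 0 of the 13 passed.

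The knockout libraries differed from each other in most of the messages. Knockout 9 was the highest of the 8 libraries for 10 of the 13 genes, and knockouts 9 and 10 were each above every wildtype library for 10 genes. Knockout 3 was above every wildtype library for 6 genes and below every one for 4, and knockout 11 for 4 and 7. The median over the 13 genes of the log2 difference from the wildtype mean was 0.63 in knockout 9, 0.35 in knockout 10, 0.06 in knockout 3 and -0.12 in knockout 11, and between -0.07 and 0.09 in the wildtype libraries. As a share of FPKM times length summed over all genes, the 13 messages made up 9.46% ± 0.498 in wildtype liver (SD, n = 4). The share was 13.2% in knockout 9 and 12.1% in knockout 10, but 8.29% in knockout 3 and 8.13% in knockout 11. Alb is listed at 0 in knockout 10 and at 20877 to 27822 FPKM elsewhere. With Alb left out of every total the share was 9.27% to 10.5% in wildtype. In knockouts 9, 10, 3 and 11 it was then 13.6%, 12.1%, 8.56% and 8.44%. Set against the fixed library size of FPKM in place of the summed total, the share was 11.9% to 13.4% in wildtype. On that measure it was 16.9%, 15.2%, 12.1% and 12.1% in knockouts 9, 10, 3 and 11, so knockouts 3 and 11 lay within the wildtype range. Saa1, an acute phase gene, reached 28413 FPKM in knockout 3 and 33012 FPKM in knockout 11, against 573 FPKM in knockout 9, 266 FPKM in knockout 10 and at most 195 FPKM in wildtype; its part in the order of the libraries was not tested. Leaving out knockouts 3 and 11 removes the knockout libraries with the lower levels of these messages, so a higher difference is built into what is left and supports nothing about the knockout. With the 2 remaining knockout libraries 6 of the 13 messages were past the threshold as higher and 0 as lower, beside 1.88% and 6.35% of all tested genes. These were mt-Nd2, mt-Co1, mt-Nd4l, mt-Nd4, mt-Nd5 and mt-Nd6, with log2 changes of 0.52, 0.64, 0.79, 0.56, 0.68 and 0.56.

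**Figure D3:**
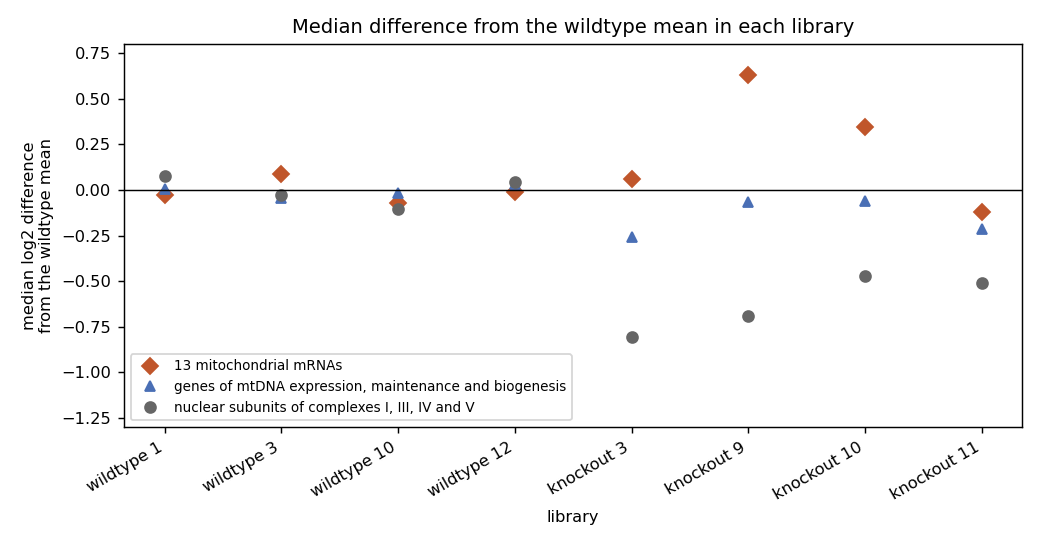
Median log2 difference from the wildtype mean in each library for the 13 mitochondrial messages (diamonds), the 70 tested nuclear subunit genes of the same complexes (circles) and the 78 tested genes of mitochondrial genome expression, maintenance and biogenesis (triangles). The messages are highest in knockout 9 (0.63), while the nuclear subunits lie below 0 in all 4 knockout libraries, from -0.81 to -0.47.

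Ratios of neighbouring messages within a library do not depend on a scaling factor of that library. Of the 12 ratios between consecutive genes 5 had groups that did not overlap, where 19.9% of 10053 ratios between neighbouring tested nuclear genes did. Consecutive ratios share a gene and so are not independent. Both ratios that hold mt-Co2 and both that hold mt-Nd4l are among those without overlap. The ratio of mt-Co2 to mt-Co1 was 1.33, 1.56, 1.24 and 1.40 in wildtypes 1, 3, 10 and 12 and 0.839, 0.865, 0.884 and 0.918 in knockouts 3, 9, 10 and 11. All wildtype libraries thus had more mt-Co2 than mt-Co1 per length, and all knockout libraries less. The mean log2 ratio was lower by 0.65 in the knockout, and knockouts 3 and 11, at 0.839 and 0.918, enclosed 9 and 10. The ratio of mt-Co3 to mt-Atp6, genes with no transfer RNA between them, was 1.19, 1.09, 1.02 and 0.999 in the wildtype libraries and 0.848, 0.745, 0.851 and 0.926 in the knockout libraries. The ratio of mt-Atp8 to mt-Co2 was higher in the knockout, at 2.89 ± 0.132 in wildtype and 3.82 ± 0.565 in knockout liver (SD, n = 4). That of mt-Nd4l to mt-Nd3 was 0.190 ± 0.0419 and 0.367 ± 0.0933. These 4 ratios are given as values without a test.

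**Figure D4:**
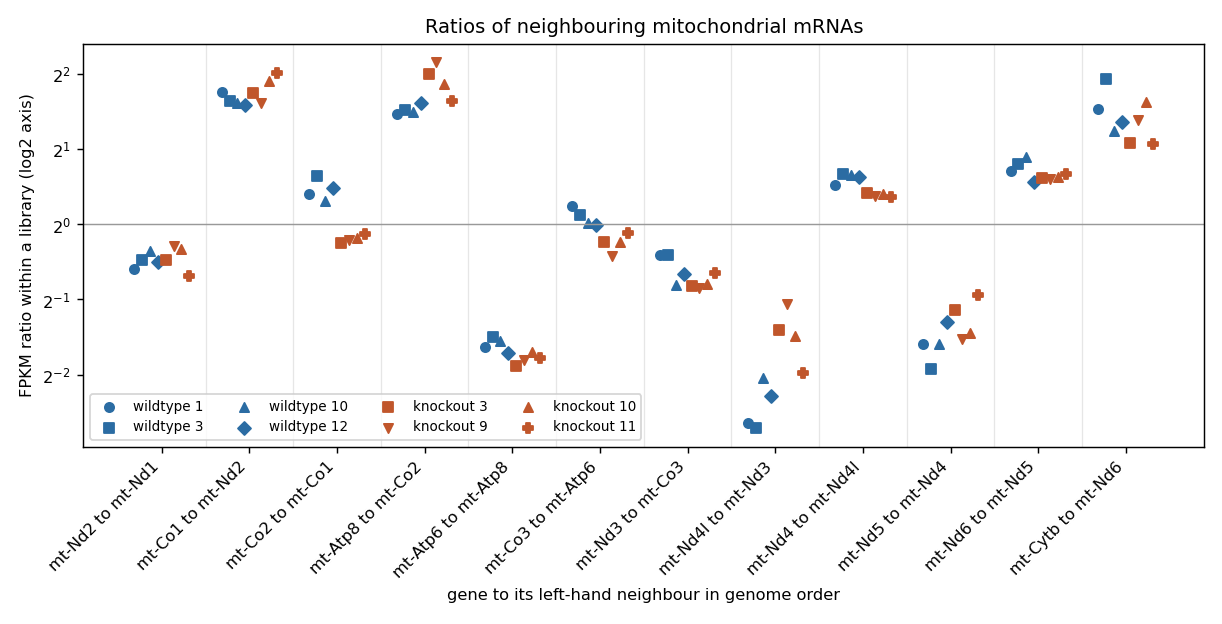
FPKM ratio of each mitochondrial protein gene to its left-hand neighbour in genome order (log2 axis), 1 point per library, wildtype blue and knockout orange. The ratio of mt-Co2 to mt-Co1 lies above 1 in the 4 wildtype libraries and between 0.839 and 0.918 in the knockout libraries.

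For 3 pairs the ratio was tested with a two-sided exact permutation test, which with 4 libraries against 4 cannot give a p below 0.0286. In the shared message of mt-Nd4l and mt-Nd4 the ratio of mt-Nd4l to mt-Nd4 was 0.696, 0.628, 0.633 and 0.648 in the wildtype and 0.750, 0.771, 0.756 and 0.774 in the knockout libraries. It was higher in each knockout library than in any wildtype library (log2 difference 0.23, exact p = 0.0286, adjusted over the 3 ratios 0.0857). In the other shared message the ratio of mt-Atp8 to mt-Atp6 was 3.03 ± 0.191 in wildtype and 3.48 ± 0.184 in knockout liver (SD, n = 4). The groups overlapped narrowly, at 3.27 in wildtype 12 and 3.25 in knockout 10 (log2 difference 0.20, exact p = 0.0571, adjusted 0.0857). The ratio of mt-Nd6 to its neighbour mt-Cytb on the other strand was 0.353 ± 0.0692 and 0.412 ± 0.0730 (log2 difference 0.23, exact p = 0.314), and differed by 0.02 without knockouts 3 and 11. After adjustment 0 of the 3 passed. The ratios of the 2 shared messages both set a short gene against a longer one. Across the other tested genes the median log2 change was -0.23 for 2309 genes with transcripts of up to 1824 bases, the length of mt-Nd5, and -0.05 for 7827 longer genes. Within the shorter class it was -0.16 for the 114 genes of up to 400 bases, the range that holds mt-Atp8, mt-Nd4l and mt-Nd3. With the trend along transcript length removed from each library, 6 of the 13 messages were higher (mt-Nd1, mt-Nd2, mt-Co1, mt-Nd4l, mt-Nd5 and mt-Nd6) and 0 lower, beside 5.03% and 5.8% of all tested genes. The log2 changes of mt-Co2 and mt-Co3 were then 0.21 and 0.02. Those of mt-Nd4l and mt-Nd4 were 0.92 and 0.40, and those of mt-Atp8 and mt-Atp6 were 0.78 and 0.40. That trend was fitted over all genes, and whether it applies to mitochondrial messages was not tested.

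The 3 messages with a negative log2 change all have a nearly whole copy on chromosome 1. The 5 genes with a copy of at least 90% of the transcript on chromosome 1, mt-Co2, mt-Atp6, mt-Co3, mt-Nd3 and mt-Nd4l, had 3 negative and 2 positive log2 changes, from -0.53 to 0.41. The other 8 genes had 8 positive ones, from 0.19 to 0.53, and included the 4 genes whose groups did not overlap. Of these 8, mt-Nd1, mt-Nd2, mt-Nd4 and mt-Cytb were negative with quantile normalization. The sets rest on annotated copies alone. mt-Atp8, at 0.23, is counted among the 8 but lies between mt-Co2 and mt-Atp6, and the sequence between their copies was not searched. With the length trend removed mt-Co2 and mt-Co3 were positive, at 0.21 and 0.02, and only mt-Nd3 was negative, at -0.04. Neither the difference between these sets nor the part of the copies was tested.

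The nuclear genes of the same complexes were lower in the knockout liver. Of 70 tested nuclear subunit genes of complexes I, III, IV and V, 60 fell and 0 rose, where 11.7% of all tested genes fell, and all 70 had a negative log2 change, or 67 with quantile normalization or with the length trend removed. Most of the 70 have short transcripts. Of tested genes outside the mitochondrial genome with transcripts of up to 1824 bases 25.8% fell, at a median log2 change of -0.23. Of longer genes 7.51% fell. By complex 31 of 36 fell in complex I, 8 of 9 in complex III, 9 of 9 in complex IV and 12 of 16 in complex V, with medians of -0.59, -0.62, -0.65 and -0.59 beside -0.08 over all tested genes. The largest fall among those named was that of Atp5e, the epsilon subunit gene of ATP synthase, from 695 ± 84.7 to 263 ± 50.1 FPKM (SD, n = 4; limma log2 change -1.41, adjusted p = 0.00231). Cox6c fell by 0.98, Cox7a2 by 0.78, Cox7c by 0.70 and Cox6b1 by 0.60 on the log2 scale in complex IV, beside mt-Co1, which rose. In complex I Ndufa1, Ndufa2, Ndufa5 and Ndufb2 fell by 0.95, 0.94, 0.92 and 0.91, and in complex III Uqcrh, Uqcrfs1, Uqcrb and Uqcr10 by 0.72, 0.65, 0.64 and 0.61. Atp5l, Atp5j2 and Atp5h of complex V fell by 0.83, 0.69 and 0.69. With the length trend removed 39 of the 70 fell and 0 rose, beside 5.8% and 5.03% of all tested genes. With quantile normalization 35 of the 70 fell, where 652 of all tested genes did. Without knockouts 3 and 11 45 fell, beside 6.35% of all tested genes. A test of the difference between the mitochondrial and the nuclear genes as groups was not made.

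**Figure D5:**
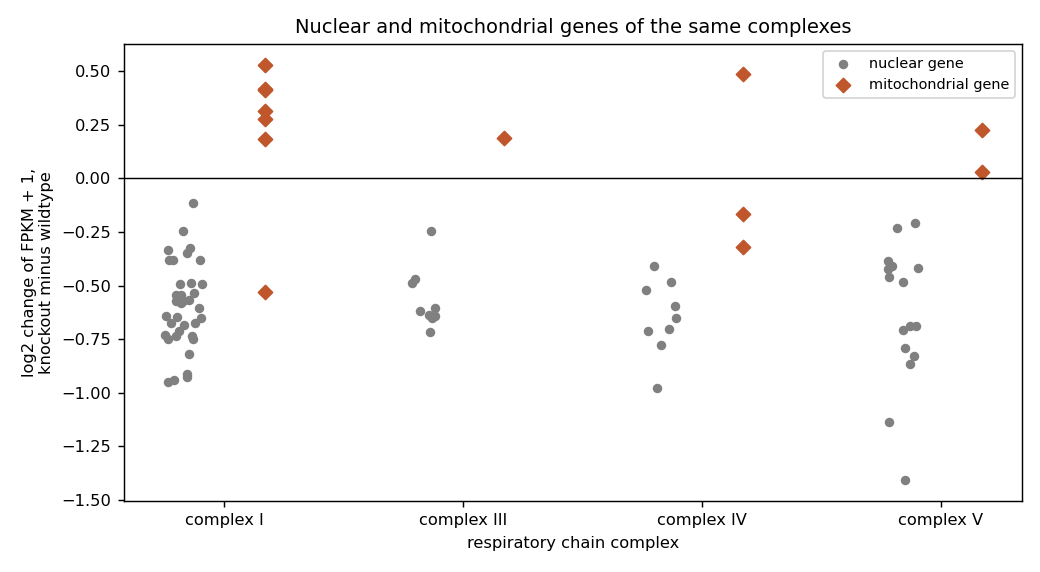
Log2 change of FPKM + 1 (knockout minus wildtype) of nuclear subunit genes (grey circles) and mitochondrial genes (orange diamonds) of each respiratory chain complex; each point is 1 gene. All 70 nuclear genes lie below 0 and 10 of the 13 mitochondrial genes above it; with quantile normalization 67 and 5 do.

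Of 78 tested nuclear genes that express, process or maintain the mitochondrial genome or regulate mitochondrial biogenesis, 11 fell and 0 rose, beside 11.7% and 2.7% of all tested genes. Their median log2 change was -0.15, and without knockouts 3 and 11 4 fell, beside 6.35% of all tested genes. In RNA processing and stability 4 of 23 fell. Slirp, which with Lrpprc protects mitochondrial messages from decay, went from 141 ± 14.2 to 80.0 ± 2.53 FPKM (SD, n = 4; limma log2 change -0.80, adjusted p = 0.00297). Fastkd2, which binds mitochondrial ribosomal RNA and the mt-Nd6 message, went from 11.7 ± 1.41 to 6.52 ± 1.03 FPKM (limma log2 change -0.76, adjusted p = 0.00644). Ptcd1 and Fastkd1, RNA-binding proteins of the organelle, fell by 0.32 and 0.35. Lrpprc, chosen after its value was seen, was at 20.04 ± 1.51 and 18.2 ± 4.33 FPKM (limma adjusted p = 0.540).

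In mitochondrial genome replication and maintenance 5 of 15 genes fell (0 rose), beside 11.7% of all tested genes. Polg2, the accessory subunit of the mitochondrial DNA polymerase, went from 5.66 ± 0.687 to 2.78 ± 0.405 FPKM (SD, n = 4; limma log2 change -0.82, adjusted p = 0.00398). Ssbp1, the single-stranded DNA binding protein of mitochondria, went from 36.2 ± 1.92 to 22.9 ± 3.15 FPKM (limma log2 change -0.65, adjusted p = 0.00648). Dguok, a deoxyguanosine kinase gene, and Rnaseh1, which removes RNA from DNA hybrids, fell by 0.60 and 0.38. The catalytic subunit gene Polg fell by 0.46 (limma adjusted p = 0.0363) and was named after its value was seen. In ribosomal and transfer RNA modification 2 of 23 fell, Ngrn by 0.55 and Cdk5rap1 by 0.83, again beside 11.7% of all tested genes. The groups overlapped in Cdk5rap1, where wildtype 10 at 2.90 FPKM was within the knockout range of 2.22 to 2.95 FPKM. Of Fastkd1, Ptcd1, Ngrn, Cdk5rap1, Dguok and Rnaseh1, each lost its call in 8 to 15 of the alternatives.

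In mitochondrial transcription 0 of 10 tested genes passed in limma, where 14.4% of all tested genes did. Of the 10, 3 were lower at an unadjusted p under 0.05. Tfam, which packages mitochondrial DNA and starts its transcription, was at 44.7 ± 9.27 and 32.2 ± 4.44 FPKM (SD, n = 4; limma log2 change -0.45, adjusted p = 0.0862). The terminator-binding gene Mterf1a was at 1.68 ± 0.189 and 1.25 ± 0.217 FPKM (limma adjusted p = 0.124). The polymerase gene Polrmt was at 11.4 ± 2.19 and 13.3 ± 4.52 FPKM (limma adjusted p = 0.626), highest in knockout 9 at 19.8 FPKM. Among 8 tested regulators of biogenesis 0 passed in limma, again beside 14.4% of all tested genes, and 0 at an unadjusted p under 0.05. Nearest were Gabpb2, which encodes a subunit of nuclear respiratory factor GABP, with a log2 change of -0.23 (limma adjusted p = 0.173), and Yy1 with -0.17 (limma adjusted p = 0.434). Ppargc1a, a coactivator of mitochondrial biogenesis, was at 1.33 ± 0.301 and 1.40 ± 0.471 FPKM (limma adjusted p = 0.930). Polrmt and Ppargc1a were named after their values were seen.

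Libraries held between about 26800000 and 34900000 fragments, estimated from the FPKM of a single fragment. The 8 hepatocyte markers summed to between 49548 and 56344 FPKM in wildtype and between 29965 and 60524 FPKM in knockout libraries, with the lowest sum in knockout 10, where Alb is listed at 0. Without Alb the other 7 summed to between 28509 and 30033 FPKM in wildtype and between 23971 and 33166 FPKM in knockout libraries. Of the 8 markers 3 had an unadjusted p under 0.05, and Cyp2e1 was the 1 marker that fell (limma log2 change -0.60, adjusted p = 0.0318). Beside this and the marker counts below, 11.7% of all tested genes were called lower and 2.7% higher. Of tissues rich in mitochondria, the 5 striated muscle markers summed to at most 4.06 FPKM, with Myh6 at 0 throughout. The 3 brown fat markers summed to at most 118 FPKM in wildtype and 240 FPKM in knockout libraries, with Ucp1 at 0 throughout. The 4 red cell markers summed to between 1418 and 5765 FPKM in wildtype and between 1056 and 3533 FPKM in knockout libraries, and the 7 lymphocyte and neutrophil markers to at most 6.28 and 137 FPKM. In limma 0 of 4 tested red cell markers and 0 of 3 tested lymphocyte and neutrophil markers passed, with 1 and 2 at an unadjusted p under 0.05. Of 5 tested Kupffer cell, 5 tested sinusoidal endothelium and 3 tested stellate cell markers 0 passed in limma, with 0, 3 and 2 at an unadjusted p under 0.05. The 4 bile duct markers, summing to at most 1.85 FPKM, were too low to test. Malat1, Neat1 and Meg3, RNAs kept in the nucleus, gave 0 calls in limma and 0 at an unadjusted p under 0.05, with log2 changes of -0.40 for Neat1 and 0.60 for Meg3 (limma adjusted p = 0.601 and 0.261). The part of these in the levels of mitochondrial messages was not tested.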

How the data were processed

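Liver RNA of 4 wildtype and 4 knockout libraries was compared. FPKM per gene was computed by the authors and deposited as 1 table; the submitters' processing notes name TopHat2 2.1.0, HTSeq and Cufflinks 2.2.1 and build mm10, without role or order. FPKM keeps no whole counts, so no count model was fitted, and short transcripts depend on how length was corrected. GENCODE M21 named 24807 of 25690 genes. In R 4.3.3, limma 3.58.1 with a mean-variance trend was fitted to log2(FPKM + 1) of the 10250 genes averaging 1 FPKM or more, wildtype against knockout with no covariate, with Benjamini-Hochberg adjustment at 0.05 over all of them; log2 changes are on that scale. Of 5 planned ratios 3 were tested, since ribosomal RNA values were not analysed here. Nuclear copies came from BLAST 2.17.0 of GENCODE M21 transcripts. Up to 4 genes per list with the smallest adjusted p among those called were named, or, with none called, up to 2 with the smallest unadjusted p. The members, lists and alternatives were chosen with earlier results of these data known. Tested on simulated data for knockout against wildtype over 10250 genes, the fit recovered 91% of 100 genes changed by 1 and 98% of 100 changed by 2 on the log2 scale, and 6.44% of 202 calls were false. Changes as small as those of mt-Co1 and mt-Nd5 (0.49 and 0.53) were not simulated. Each gene was drawn on its own, so shifts that many genes of a library share were absent. Alternatives changed the pseudocount, filter, scaling, length trend, variance model, weights, block and libraries.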

Additional observations from a re-analysis of the deposited data

Results flagged for a closer look

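In groups of 4 libraries, a library was singled out where its gap to the nearest other took up more of the group's range than Dixon's criterion allows; 3 of 122 groups did, and chance flags about 1 in 20. For mt-Nd1 knockout 9 stood at 10526.5 FPKM, with the other knockout libraries between 8469 and 8678 FPKM. For mt-Cytb wildtype 3 stood at 8677 FPKM, with the other wildtype libraries between 6623 and 6835 FPKM. For Gm4076, the nuclear copy of part of mt-Nd5, knockout 3 stood at 3.98 FPKM, with the other knockout libraries between 6.72 and 7.16 FPKM.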

How the results depend on the processing

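The number of mitochondrial messages called higher (2) was 0 with no filter on low values or with scaling to the total outside the mitochondrial genome, 1 with quantile normalization, 6 with the length trend removed or without knockouts 3 and 11, and 0 to 1 when each library was left out in turn. The number called lower was 0 under all 21 alternatives. The median log2 change (0.23) was -0.022 with quantile normalization, 0.57 with the length trend removed, 0.52 without knockouts 3 and 11 and 0.093 to 0.33 leaving out each library, lowest without knockout 9. The number of nuclear subunit genes called lower (60) was 35 with quantile normalization and 39 with the length trend removed. It was 42 with scaling outside the mitochondrial genome, 45 with median-ratio scaling or without knockouts 3 and 11, and 40 to 60 leaving out each library. For the 78 expression, maintenance and biogenesis genes the number lower (11) was 5 with no filter, 6 with median-ratio scaling, 7 with quantile normalization or the length trend removed, 4 with scaling outside the mitochondrial genome or without knockouts 3 and 11, and 4 to 11 leaving out each library, where 0 to 1 were higher. Among all tested genes the number lower (1195) was 918 with no filter, 720 with median-ratio scaling, 652 with quantile normalization and 594 with the length trend removed. It was 570 with scaling outside the mitochondrial genome, 653 without knockouts 3 and 11, and 598 to 1296 leaving out each library. The causes were not tested.

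Quantile normalization turned the log2 change of mt-Nd1 to -0.051, mt-Nd2 to -0.022, mt-Atp6 to -0.011, mt-Nd4 to -0.15 and mt-Cytb to -0.23, and removal of the length trend that of mt-Co2 to 0.21 and mt-Co3 to 0.025. Leaving out each library gave -0.10 to 0.13 for mt-Atp6, -0.020 to 0.28 for Polrmt and -0.044 to 0.18 for Ppargc1a. Without knockouts 3 and 11 Lrpprc was at 0.10, Yy1 at 0.020 and Ppargc1a at -0.16. Over 51 single genes and all alternatives, 910 of 1063 values kept direction and side of the threshold, 116 no longer passed, 16 newly passed and 21 changed direction. The 3 tested ratios kept their direction in the 9 alternatives run for them, which leave out libraries; with 1 left out the smallest possible p is 0.0571, so none could pass.

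Numbers 3 and 10 occur in both groups, but the labels do not tie them to a shared source, and deviations of same-numbered libraries correlated at -0.01 and 0.02. With that replicate block 0 mitochondrial messages, 0 nuclear subunit genes and 0 expression and maintenance genes were called. Among all tested genes 1 was higher and 1 lower. That fit takes the change from the libraries numbered 3 and 10 alone and leaves little to estimate error. Foxo1 did not pass in it either (limma adjusted p = 0.175), so the lost calls decide nothing about the other results. Log2 changes in it were -0.050 for mt-Atp6, -0.17 for Polrmt and 0.43 for Neat1. FPKM of genes as short as mt-Atp8 depends on a length correction that could not be examined, and fragments shared with nuclear copies could not be assigned. Fragment depth does not limit these abundant messages.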
